A study of Mus musculus with 12 samples.

Results

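The genes described are 6 protein-coding genes, Agap2, Cp, Ildr2, Nxf7, Angptl2 and Rassf8, whose transcripts were scarce in either Null or DKO RAW264.7 cells and far more abundant in the other line. They were chosen by their measured values, because their counts differed over 10-fold between the lines in control cells. They are 6 of 157 genes past 10-fold in that comparison, of 18066 genes tested and 32688 in the count table. Those 157 genes were 0.869% of the genes tested.

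RAW264.7 is an established mouse macrophage cell line. The DKO line was made from it with CRISPR to lack TFEB and TFE3, and the Null line, which the study's text calls WT, keeps both factors. Cells of each line were left as controls (untreated in the labels, DMSO in the study's methods) or were kept for 8 h in 100 µM etoposide, a topoisomerase II poison that breaks DNA. Each of the 4 groups had 3 RNA-seq libraries. Each genotype was represented by 1 line, and whether the DKO line came from a single cell is not given in the sources used here. The study's text calls the libraries of a group independent samples without saying what was repeated. The p-values below therefore measure only the spread between libraries of these lines, and an effect of losing TFEB and TFE3 cannot be told apart from any other difference between the lines.

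TFEB and TFE3 are related helix-loop-helix transcription factors that bind E-box letters in the promoters of lysosomal and autophagy genes and move to the nucleus under stress. A line grown out after gene editing can also carry differences that its founder cells already had, which is why genes that are silent in one line and active in another are of use as marks of a line. The 6 genes have no shared textbook function. Agap2 encodes a GTPase-activating protein for Arf GTPases that also enhances phosphoinositide 3-kinase signalling, and Cp encodes ceruloplasmin, the copper ferroxidase that oxidises iron leaving cells. Ildr2 encodes an immunoglobulin-like membrane protein of the angulin family of tricellular junctions, and Nxf7 a member of the nuclear RNA export factor family. Angptl2 encodes a secreted angiopoietin-like glycoprotein known in inflammation, and Rassf8 an adaptor with a Ras association domain.

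The genes lie on 6 chromosomes. In GENCODE M21 coordinates (GRCm38), Agap2 (ENSMUSG00000025422.8) spans chr10:127075284-127093169 on the plus strand, Cp (ENSMUSG00000003617.16) chr3:19957054-20009145 on the plus strand and Ildr2 (ENSMUSG00000040612.13) chr1:166254139-166316823 on the plus strand. Nxf7 (ENSMUSG00000031410.14) spans chrX:135579555-135598777 on the minus strand, Angptl2 (ENSMUSG00000004105.8) chr2:33216069-33247717 on the plus strand and Rassf8 (ENSMUSG00000030259.12) chr6:145746748-145821079 on the plus strand.

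Promoter sequence was examined for the E-box core CACGTG, for TCACGTG, which extends it by a base as in lysosomal promoters, and for TCATGTG, a related box of the same factor family. TCACGTG contains CACGTG, and both strands were read. RefSeq promoters (GRCm38.p6) were found for 5 of the 6 genes, and the 250 bases before each start were searched. Of all 32851 promoters of the same length in that table, 6.02% held CACGTG, 3.13% held TCACGTG and 3.25% held TCATGTG. Among the 7 promoters of the 5 genes, the only match was in Ildr2, which held TCACGTG on the reverse strand, its first plus-strand base lying 82 bases before the start. The Ildr2 promoter is printed because it holds the letters, and those of Agap2 and Cp because these are the genes that were lower in the line lacking the factors. Each is the plus strand, 5′ to 3′, and capitals mark CACGTG with the A that completes TCACGTG on the other strand.
Ildr2, chr1:166253889-166254138: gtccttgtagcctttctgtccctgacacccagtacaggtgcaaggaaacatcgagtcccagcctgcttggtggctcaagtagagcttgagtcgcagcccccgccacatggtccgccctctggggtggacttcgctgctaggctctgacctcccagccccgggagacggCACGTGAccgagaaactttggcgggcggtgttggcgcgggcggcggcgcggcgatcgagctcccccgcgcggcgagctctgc
Agap2, chr10:127078657-127078906: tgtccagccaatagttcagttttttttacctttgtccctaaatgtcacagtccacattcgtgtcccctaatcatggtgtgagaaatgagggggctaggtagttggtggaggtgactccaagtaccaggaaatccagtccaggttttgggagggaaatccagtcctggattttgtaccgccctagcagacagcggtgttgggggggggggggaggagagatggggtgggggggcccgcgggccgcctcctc
Cp, chr3:19956804-19957053: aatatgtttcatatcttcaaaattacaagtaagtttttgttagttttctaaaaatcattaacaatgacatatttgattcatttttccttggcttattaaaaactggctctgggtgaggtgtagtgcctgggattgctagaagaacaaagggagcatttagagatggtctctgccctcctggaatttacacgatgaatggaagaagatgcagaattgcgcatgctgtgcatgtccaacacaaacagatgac
The Ildr2 window was 66.8% G and C with 23 CpG dinucleotides, the Agap2 window 56% with 6 and the Cp window 37.2% with 2. The Agap2 window lies before a RefSeq start inside the annotated gene, and the printed windows of Ildr2 and Cp end at the base before the annotated gene start. Cp had another window, chr3:19956999-19957248, which reaches into the annotated gene, held no match and is not printed. A match of letters is a description of the sequence and not of binding, and no binding was measured here.

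Total counts per library ran from 29837255 to 61809316, and levels below are CPM, counts divided by the library size and scaled to the same total in every library, with TMM factors (edgeR's correction for composition) of 0.939 to 1.03. The targeted genes were examined as a check of the labels. In control cells Tfeb had a mean of 16.8 CPM in the Null and 4.40 CPM in the DKO line, and with etoposide 7.56 and 4.34 CPM. The means of Tfe3 were 104 and 37.8 CPM in control cells, and 101 and 37.7 CPM with etoposide, again Null before DKO. Both transcripts were lower in DKO cells with and without the drug (limma-trend, Benjamini-Hochberg adjusted p from 1.62e-06 to 0.00179 over the 2 genes and 2 comparisons), but neither was absent. The titles of the DKO etoposide libraries name TFEB/TFE3 without the word DKO and hold the word MEFs, while their other labels name RAW264.7. Summed over 8 macrophage markers, these libraries lay at 4580 to 4770 CPM, against 4190 to 5130 CPM in the other groups. The sum hides Fcgr1, an antibody receptor gene, which was lower in these libraries, 4.72 to 5.42 CPM, than in those of Null etoposide cells, 36.3 to 37.3 CPM, or DKO control cells, 28.4 to 30.4 CPM. Of the 8 markers, 2 were higher and 2 lower than in Null etoposide cells (limma-trend, Benjamini-Hochberg adjusted), where 33.6% of all genes were called. Summed over 8 fibroblast markers they lay at 1.01 to 1.20 CPM, against 0.152 to 0.263 CPM in DKO control, 0.646 to 0.928 CPM in Null control and 1.91 to 2.04 CPM in Null etoposide libraries. They thus lay above both control groups and below the Null etoposide group, and the part of this in the results was not tested.

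**Figure D1:**
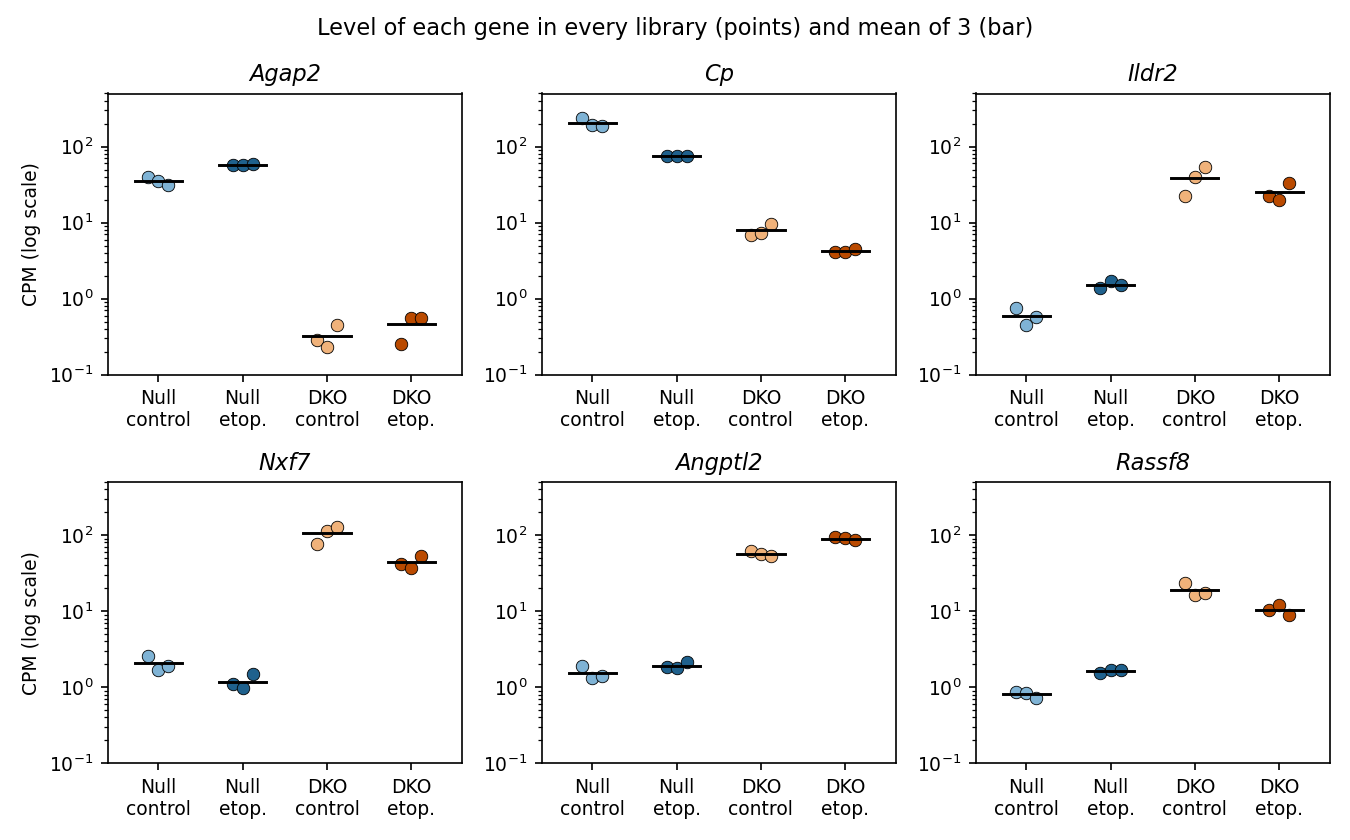
The 6 panels plot CPM on a log axis for each gene, with a point for each of the 12 libraries and a bar at the mean of 3 libraries per group. Agap2 and Cp sit high in both Null groups, the other 4 genes sit high in both DKO groups, and in each panel the lowest point of the higher line lies above the highest point of the lower line.

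Agap2 and Cp were the genes scarce in DKO cells. Agap2 lay at 40.4, 35.6 and 30.9 CPM in the 3 Null control libraries and at 57.0, 57.2 and 59.6 CPM in the Null etoposide libraries. In DKO cells it lay at 0.282, 0.233 and 0.457 CPM in control and at 0.254, 0.560 and 0.559 CPM in etoposide libraries. The lines stood apart in every library and the DKO groups overlapped, while the Null groups did not. The lowest Null library was 55.3-fold above the highest DKO library, the widest gap of the 6 genes. The DKO values rest on few reads, 13 to 34 counts per library, and the exact 95% Poisson interval of the lowest, 13 counts, runs from 6.92 to 22.2. Such intervals cover counting error only.

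Cp lay at 239, 193 and 189 CPM in Null control and at 75.3, 74.5 and 76.2 CPM in Null etoposide libraries. In DKO libraries it lay at 6.93, 7.36 and 9.70 CPM in control and at 4.16, 4.08 and 4.47 CPM with etoposide. No pair of groups overlapped, and the order from high to low was Null control, Null etoposide, DKO control, DKO etoposide. With at least 229 counts in every DKO library, Cp was low there rather than off. The gene shares 108 exonic bases with Hps3 on the opposite strand, whose reads could supply up to 7.33% of its counts if strand was not used in the counting. Because these are bulk libraries, fewer cells expressing a gene cannot be told apart from less RNA per cell.

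Ildr2, Nxf7, Angptl2 and Rassf8 were the genes scarce in Null cells. Ildr2 lay at 0.746, 0.444 and 0.577 CPM in Null control and at 1.38, 1.70 and 1.49 CPM in Null etoposide libraries. In DKO libraries it lay at 22.1, 39.3 and 53.5 CPM in control and at 22.6, 19.7 and 33.7 CPM with etoposide. Its DKO groups overlapped and its Null groups did not, and relative to its mean it had the widest spread of the 6 in DKO control cells, 38.3 ± 15.7 CPM (SD, n = 3). Reads of the antisense gene 5330438I03Rik, which shares 911 exonic bases with it, could supply up to 3.92% of its counts.

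Nxf7 lay at 2.59, 1.70 and 1.90 CPM in Null control and at 1.09, 0.966 and 1.49 CPM in Null etoposide libraries. In DKO libraries it lay at 76.3, 112 and 127 CPM in control and at 42.0, 37.0 and 53.2 CPM with etoposide. No pair of groups overlapped, and within each line the etoposide libraries were the lower.

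Angptl2 lay at 1.91, 1.31 and 1.4 CPM in Null control and at 1.83, 1.78 and 2.16 CPM in Null etoposide libraries. In DKO libraries it lay at 62.1, 56.0 and 53.6 CPM in control and at 93.1, 90.9 and 85.1 CPM with etoposide. The Null groups overlapped, whereas every DKO etoposide library was above every DKO control library.

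Rassf8 lay at 0.875, 0.828 and 0.721 CPM in Null control and at 1.53, 1.69 and 1.66 CPM in Null etoposide libraries. In DKO libraries it lay at 23.4, 16.1 and 17.4 CPM in control and at 10.4, 12.1 and 8.83 CPM with etoposide. The etoposide libraries were thus the higher in Null cells and the lower in DKO cells, with no overlap in either line. Its gap between lines was the narrowest of the 6, the lowest DKO library lying 5.24-fold above the highest Null library.

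Levels between genes were compared per kilobase of exon (RPKM). In the line where it was high, the mean level in control cells stood between percentile 49.8 of genes tested, for Rassf8, and percentile 92.9, for Nxf7. In the line where it was low, it stood at percentile 5.68 for Agap2, 6.58 for Ildr2, 10.4 for Rassf8, 15.1 for Angptl2, 27.8 for Nxf7 and 29.3 for Cp. On the same scale the 6 genes were therefore not equally silent, and Nxf7 and Cp were not among the lowest genes of the line in which they were low.

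In control cells, the comparison that chose them, the ratio of group means was 110 for Agap2 and 25.9 for Cp in favour of Null cells, and 65.0 for Ildr2, 51.0 for Nxf7, 37.1 for Angptl2 and 23.4 for Rassf8 in favour of DKO cells. The fitted differences, DKO minus Null on the log2 scale, were -6.58, -4.69, 5.82, 5.62, 5.18 and 4.44 in the same order. They are smaller than the ratios for the scarcest transcripts because 3 counts were added before taking logs. These values are a description and are given without a test. By the size of this difference Agap2 ranked 16th, Ildr2 30th, Nxf7 35th, Angptl2 43rd, Cp 61st and Rassf8 74th of 18066 genes, so the 6 were not the genes furthest apart. The edge of the rule lay at a log2 difference of 3.32 in size. Just inside it were Kcna3 at -3.33, a potassium channel gene, and Fosl1 at 3.34, an AP-1 subunit gene of which up to 36.6% of counts could come from the overlapping gene Ccdc85b, and just outside were Fhod3 at 3.31 and Scimp at -3.31.

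The rule compares control libraries, so the genes were tested in the etoposide-treated libraries, although they were picked among the 157 with earlier results of these data known. With the drug the DKO libraries again held more Ildr2, Nxf7, Angptl2 and Rassf8 and less Agap2 and Cp than the Null libraries, with no overlap between the 3 libraries of each line. Of all genes tested, 55.6% had no overlap between the lines in these libraries. All 6 genes passed the test (limma-trend, Benjamini-Hochberg adjusted over all genes), 4 higher and 2 lower. Over all genes tested 33.6% were called, 15.9% higher and 17.8% lower in DKO cells. The difference was past 10-fold for 5 of the 6, against 0.908% of all genes. Among the 157 genes they were picked from, 98.7% were called in the same direction after etoposide and 56.7% were again past 10-fold. The choice thus made a call likely for any of the 6, and the shares over all genes do not measure this.

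By size, the log2 difference after etoposide was -6.88 for Agap2 (SE 0.261, 95% interval -7.45 to -6.31, limma-trend, Benjamini-Hochberg adjusted p 1.08e-09) and 5.50 for Angptl2 (SE 0.134, interval 5.21 to 5.80, adjusted p 4.09e-11). It was 5.16 for Nxf7 (SE 0.225, adjusted p 3.51e-09) and -4.13 for Cp (SE 0.123, adjusted p 1.39e-10). Ildr2 stood at 3.97 (SE 0.295, interval 3.33 to 4.61, adjusted p 4.86e-07), its lower bound lying at the 10-fold line. Rassf8, at 2.63 (SE 0.162, interval 2.28 to 2.98, adjusted p 8.38e-08), was the gene that dropped below 10-fold. Its ratio of means was 6.44 after etoposide and its rank among all genes 342nd, whereas Agap2 ranked 6th. Agap2 and Angptl2 had wider ratios of means after etoposide than in control cells, 127 and 46.6, and the other 4 narrower ones.

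**Figure D2:**
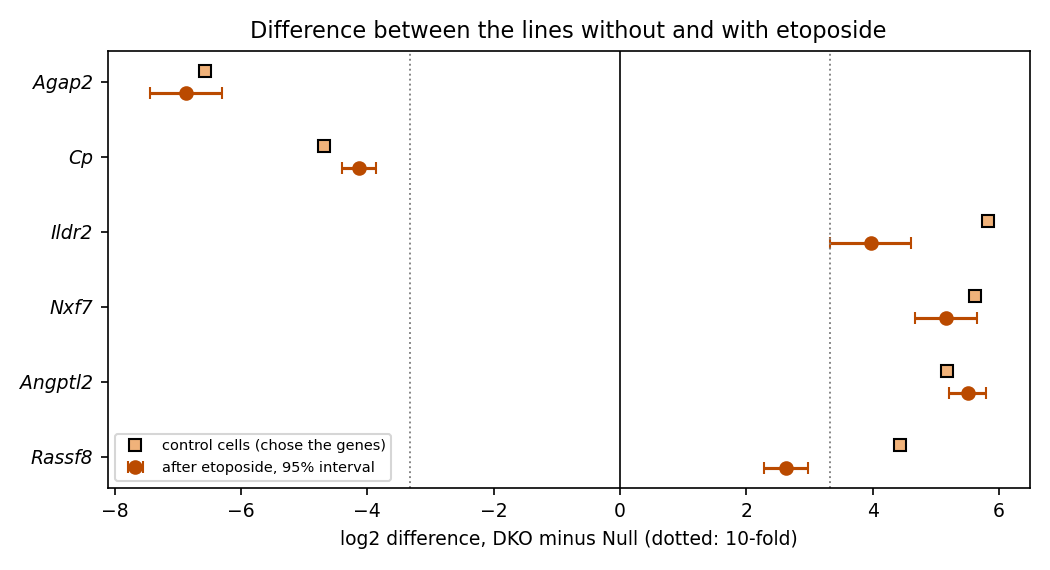
For each gene the log2 difference, DKO minus Null, is plotted for control cells (squares, which chose the genes and carry no interval) and after etoposide (circles with 95% intervals), with dotted lines at 10-fold. Each circle lies on the same side of 0 as its square, and Rassf8, at 2.63, is the circle whose interval lies inside the dotted lines.

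The share of a gene's variation in log2 CPM over the 12 libraries that lay between the lines was 98.8% for Angptl2, 98.5% for Agap2, 95.6% for Nxf7, 94.2% for Ildr2, 93.1% for Rassf8 and 92.8% for Cp. The median over all genes tested was 14.2%, and 2.03% of them were over 90%. The control libraries that chose the genes enter these shares, which are a description. The rest of the variation was of different kinds. For Cp it lay mostly between treatments, 6.53%, and so it did for Nxf7, 3.32%. For Rassf8 and Ildr2 it lay mostly in the interaction of line and treatment, 6.08% and 3.37%. For Agap2 the largest part of the rest was the spread between libraries of a group, 0.782%.

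The next comparison was what etoposide did to the 6 genes within each line. These responses contain the control values of the line concerned, on which each gene was chosen for being high or low, so a move towards the other line is favoured by the choice. They are therefore given as a description with their SE and no test, and none came near the size of the difference between lines. By the criterion used for all genes (limma-trend, Benjamini-Hochberg adjusted), 20.9% of genes rose and 18.7% fell in Null cells, and 20.2% rose and 19.1% fell in DKO cells, and nothing is read from these shares for the 6 genes.

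Cp and Nxf7 were lower with etoposide in both lines. Cp stood at -1.45 on the log2 scale in Null cells (SE 0.123) and at -0.89 in DKO cells, and its etoposide to control ratio of means was 0.364 and 0.530. In Null cells, where Cp was chosen as high, this is the direction the choice favours, and in DKO cells it is the opposite direction. Nxf7 stood at -0.77 in Null cells (SE 0.225), where it was chosen as low, and at -1.24 in DKO cells.

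Angptl2 and Agap2 were higher with etoposide in both lines. Angptl2 stood at 0.65 in DKO cells (SE 0.134) and at 0.32 in Null cells, where leaving out a library gave from 0.22, without Null control replicate 2, to 0.48, without Null control replicate 1. Agap2 stood at 0.71 in Null cells (SE 0.261) and at 0.41 in DKO cells, where leaving out a library gave from 0.23, without DKO control replicate 2, to 0.73, without DKO etoposide replicate 1. Without DKO etoposide replicate 2 or 3 it was 0.25 and 0.24. The direction of Angptl2 in DKO cells and of Agap2 in Null cells is away from the other line, against what the choice favours.

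The responses of Rassf8 and Ildr2 had opposite signs in the lines, each towards the other line as the choice favours. Rassf8 stood at 0.96 in Null cells (SE 0.162) and at -0.85 in DKO cells. Ildr2 stood at 1.31 in Null cells (SE 0.295) and at -0.54 in DKO cells, where leaving out a library gave from -0.91, without DKO control replicate 1, to -0.26, without DKO control replicate 3.

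The difference between the responses of the lines, DKO minus Null, is the interaction of line and treatment. It equals the difference between lines after etoposide minus that in control cells, on which the genes were chosen for being wide, so a narrowing is favoured by the choice. The values are therefore given as a description, with no test. They were -1.85 for Ildr2 (SE 0.417), -1.81 for Rassf8 (SE 0.228), 0.56 for Cp, -0.46 for Nxf7, 0.33 for Angptl2 and -0.30 for Agap2. On leaving out a library, Nxf7 ran from -0.68, without DKO control replicate 1, to -0.30, without Null etoposide replicate 3, and Angptl2 from 0.17, without Null control replicate 1, to 0.43. Agap2 turned to 0.023 without DKO etoposide replicate 1. For the 4 genes higher in DKO cells a value below 0 is a narrowing, which Ildr2, Rassf8 and Nxf7 showed, and for Agap2 and Cp a value above 0 is, which Cp showed. Over all genes 6.39% were called lower and 3.07% higher by this term, and nothing is read from those shares for the 6 genes.

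**Figure D3:**
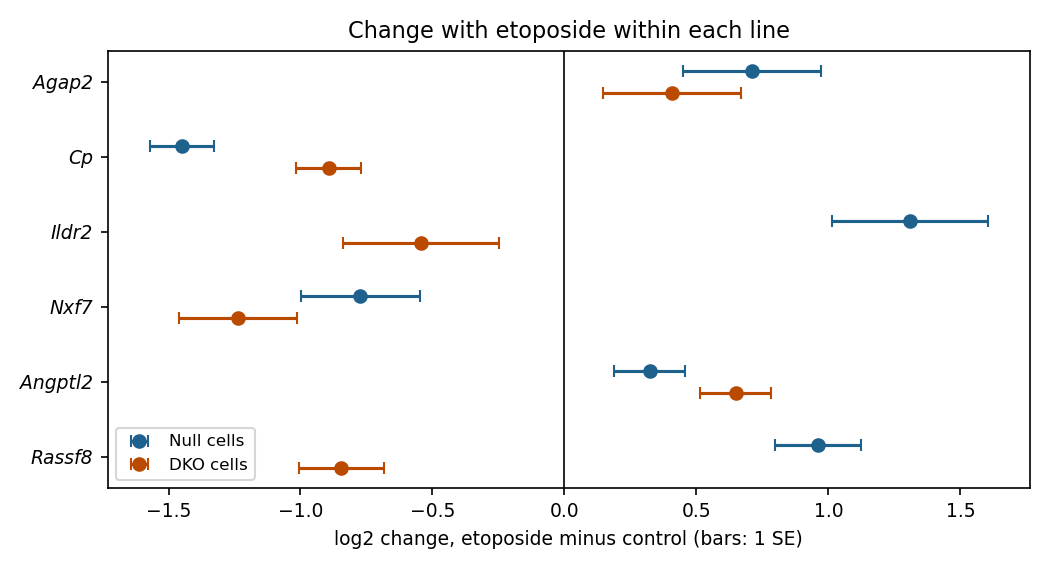
The log2 change with etoposide is plotted for each gene and line, with bars of 1 SE on either side from the model over all 12 libraries. Cp and Nxf7 lie below 0 and Angptl2 and Agap2 above 0 in both lines, and Rassf8 lies at 0.96 in the Null and at -0.85 in the DKO line.

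The 6 genes were set in the group of 157 genes past 10-fold in control cells, of which 138 were protein coding. In DKO cells 66 of them were higher and 91 lower, with the largest difference at -9.08 for Htr1b, a serotonin receptor gene. After etoposide all 157 had the same sign, 155 of them (98.7%) were called in that direction, and 89 were again past 10-fold. These 89 were 56.7% of the control set and 54.3% of the 164 genes past 10-fold after etoposide. Of the genes at the edge, Kcna3 stood at -3.87, Fosl1 at 1.04, Fhod3 at 3.54 and Scimp at -0.88 after etoposide. The medians over all genes tested were -0.000846 in control cells and -0.0122 after etoposide.

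**Figure D4:**
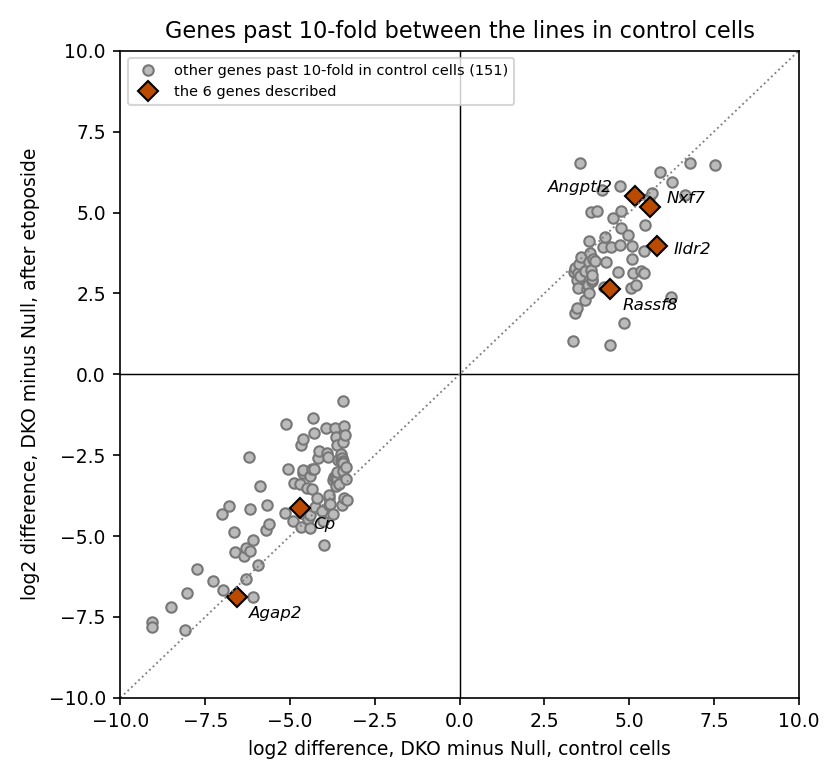
Each of the 157 genes past 10-fold in control cells is a point, with its log2 difference, DKO minus Null, in control cells on the x axis and after etoposide on the y axis, and the diagonal marks equal differences. All points lie in the lower left or upper right of the plot, Agap2 and Angptl2 just beyond the diagonal and Rassf8 and Ildr2 short of it.

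For each of the 6 genes, the 2 genes most alike in log2 CPM over the 12 libraries were found. The values of r are descriptions over libraries that share their line, since any gene that separates the lines is alike in this sense: between 87 genes (for Rassf8) and 200 genes (for Angptl2) had a Pearson r over 0.95. Most alike to Agap2 were Sema3e, a semaphorin gene, at r = 0.996, and Csf3r, the receptor gene for granulocyte colony-stimulating factor, at r = 0.995. The control means of Csf3r were 45.2 CPM (Null) and 0.703 CPM (DKO). Most alike to Cp were Hpgd, which encodes a prostaglandin-degrading enzyme, at r = 0.997, with control means of 184 CPM (Null) and 0.292 CPM (DKO), and Sirpa, an inhibitory receptor gene of macrophages, at r = 0.996, with 359 and 84.6 CPM.

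Most alike to Angptl2 was Lpar1, a lysophosphatidic acid receptor gene, at r = 0.995, with control means of 0.0244 CPM (Null) and 4.19 CPM (DKO), followed by Serinc2 at r = 0.995. Rassf8 was most alike to Dner, which encodes a Notch ligand, at r = 0.994, with 0.717 and 11 CPM, and to Arih2 at r = 0.988. Ildr2 was most alike to Amotl1 at r = 0.994 and Galm at r = 0.992, and Nxf7 to Ppp2r3a at r = 0.994 and Hmga2 at r = 0.992. These last 4 and Arih2 had log2 differences of 0.69 to 2.27 in control cells, so a gene can follow the same pattern over libraries with a much smaller step.

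The genes next to each of the 6 were examined to see how far along the chromosome a difference between lines reached. Of the 60 nearest tested genes, 5 on each side, 12 (20%) were called between the lines in control cells, 5 higher and 7 lower in DKO cells (limma-trend, Benjamini-Hochberg adjusted), where 19.3% of all genes were called. After etoposide 22 (36.7%) were called, 8 higher and 14 lower, where 33.6% of all genes were called. Both shares were close to those of all genes. Of the 60, 3 (5%) were past 10-fold in control cells, 1 beside Ildr2 and 2 beside Rassf8, where 0.869% of all genes were. Of these 3, 1 overlaps Ildr2 and the other 2 overlap each other.

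The gene past 10-fold beside Ildr2 was 5330438I03Rik, an antisense gene inside it, at 0, 0 and 1 counts in Null control and 121, 162 and 106 counts in DKO control libraries. Ildr2 reads in the 911 shared bases could account for up to 309% of those counts, so its value is uncertain. Beside Rassf8 lay Bhlhe41, which encodes a transcriptional repressor of the circadian clock, 37.2 kb away on the opposite strand. It went the other way from Rassf8, with 538, 691 and 572 counts in Null control and 4, 3 and 1 counts in DKO control libraries.

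With etoposide Bhlhe41 had 203, 154 and 134 counts in Null and 10, 3 and 4 counts in DKO libraries. Its log2 difference was -7.01 in control cells and -4.33 after etoposide. Gm43909, which overlaps Bhlhe41 on the opposite strand and could draw up to 190% of its counts from it, stood at -5.69 and -4.03 and is uncertain. Reads of Gm43909 could in turn supply up to 68.2% of the counts of Bhlhe41. Around Cp, 4 of 10 neighbours were called in control cells, all lower as Cp was, where 19.3% of all genes were called. After etoposide 5 were called, against 33.6% of all genes, 4 lower and 1 higher, the latter being Tbl1xr1 at 0.32. Those called with and without the drug differed, control value first, by -1.20 and -0.88 for 4632415L05Rik, by -0.74 and -0.65 for Gyg, and by -1.0 and -0.44 for Hps3, which overlaps Cp. Beside Nxf7 the named neighbour was Tceal9, 646 kb away, at -0.58 and -0.71.

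**Figure D5:**
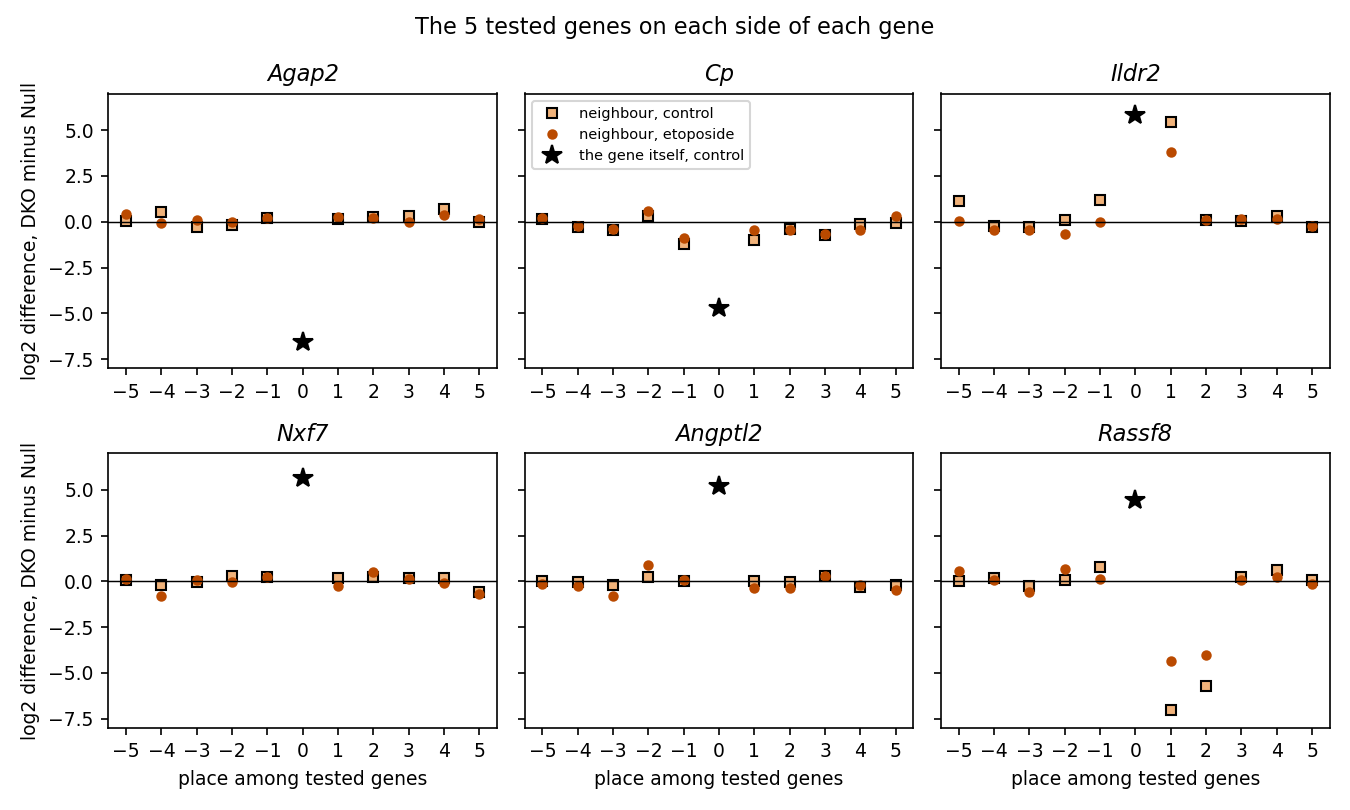
For each gene (star, control cells only) the log2 difference, DKO minus Null, of the 5 tested genes on either side is plotted in order along the chromosome, in control cells (squares) and after etoposide (circles). Most neighbours lie near 0, apart from the antisense gene inside Ildr2 and the pair beside Rassf8, which lie below 0 while Rassf8 lies above.

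Relatives of the 6 genes were taken from 6 family and pathway lists written from general knowledge. Of 82 genes listed 67 were tested, and 17 were higher and 10 lower in DKO control cells, 40.3% in all against the 19.3% of all genes. After etoposide 19 were higher and 12 lower, 46.3% against 33.6%. Only Acap1 and Steap3 of these relatives were past 10-fold in control cells, at -4.42 and 3.39, and at -3.16 and 1.91 after etoposide. Acap1 belongs to the Arf GTPase-activating proteins, as Agap2 does, and had control means of 14.3 CPM (Null) and 0.614 CPM (DKO). Of the 19 Arf GTPase-activating genes tested 6 were higher and 4 lower in control cells, and 4 and 4 after etoposide. Agap3, Acap2 and Acap3 were higher and Adap1 lower in both, whereas Arap1 stood at 0.26 in control cells and at -0.32 after etoposide.

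Around Cp, 15 genes of copper ferroxidases and iron handling were tested. In control cells 6 were higher and 2 lower (53.3% against 19.3% of all genes), and after etoposide 10 and 2 (80.0% against 33.6%). Higher in both were Slc40a1, the iron exporter ferroportin, at 2.67 and 1.92, Slc11a1, a phagosomal metal transporter of macrophages, at 1.21 and 1.46, Hfe at 1.05 and 0.80, Hmox1 at 0.51 and 0.53, and Ireb2 at 0.66 and 0.56. The endosomal iron reductase gene Steap3 was also higher, and Lcn2, at -1.09 and -1.79, and the copper pump gene Atp7a, at -0.43 and -0.28, were lower. The other ferroxidases were barely seen, with at most 1 count of Heph and 6 of Hephl1 in a library, both below the filter. At this depth no difference in them was detectable.

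In the families of the other 4 genes no relative was past 10-fold. Over all genes 19.3% were called in control cells and 33.6% after etoposide. Of the angulins, Lsr was tested and not called, at -0.13 and -0.27, and Ildr1 had at most 5 counts in a library. Of 12 genes of nuclear mRNA export 1 was called in control cells, Nxt2, a partner of these export factors, at 0.46 and at -0.41 after etoposide, while Nxf2 and Nxf3 had at most 2 and 3 counts. The general export factor gene Nxf1 stood at 0.19 and 0.19, not called. Of 10 angiopoietin-like genes and receptors 3 were higher and 1 lower in control cells, the integrin genes Itga5 at 1.68 and 1.41 and Itgb1 at 0.39 and 0.29, Angptl6 at 0.92 and 1.15, of which up to 31.0% of counts could come from an overlapping gene, and Angptl4 at -0.85 and -0.92. Of 10 Rassf and Hippo kinase genes 1 was higher and 3 lower, among them Stk3 at 0.52 and 0.90 and Rassf2 at -0.85 and -0.18.

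Genes known as targets of TFEB and TFE3 were set beside the 6. Of 40 CLEAR genes, the lysosomal and autophagy genes whose promoters carry the E-box letters, 6 were higher and 8 lower in DKO control cells (35.0% against 19.3% of all genes), and 10 and 7 after etoposide (42.5% against 33.6%). Their median differences were -0.0824 and 0.0738, and 2 were past 10-fold in control cells. These were Cd63, a tetraspanin of lysosomes, at 3.50 and 3.13, and Gpnmb, at -3.47 and -2.60. Gpnmb was low throughout, at a mean of 1.28 CPM in Null control cells. Under the other scalings of library size tried, none of the 67 neighbours and listed genes (cell type markers and the targeted genes included, the 6 genes not) called in control cells, or of the 80 called after etoposide, changed sign. With library size alone 6 and 5 of these calls were lost, and with DESeq2's size factors 3 and 3.

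Osteoclast markers were examined as those of another cell type that this lineage can form. Summed over 8 of them, control libraries lay at 4.28 to 4.70 CPM in the Null and 22.8 to 28 CPM in the DKO line. Etoposide libraries lay at 9.60 to 10.5 CPM in the Null and 51.4 to 53.0 CPM in the DKO line. Of the 6 tested, 4 were higher and 1 lower in DKO control cells, where 19.3% of all genes were called. After etoposide 3 were higher, where 33.6% of all genes were called. The sums rest mainly on Ocstamp and Dcstamp, which act in the fusion of osteoclast precursors, and these and Acp5 were higher in both comparisons. Atp6v0d2 was higher in control cells, at 1.49, and stood at 0.61 after etoposide without a call. Mmp9 was lower in control cells, at -1.17, and stood at -0.48 after etoposide without a call. Ctsk, which encodes cathepsin K, the main collagen-degrading protease of osteoclasts, was not called, at 0.04 and 0.37, with control means of 0.160 CPM (Null) and 0.127 CPM (DKO). Oscar and Calcr were below the filter, and Calcr, the calcitonin receptor gene, was at 0 in every control library. The part of these genes in the differences of the 6 was not tested. On the chromosomes that hold the 6 genes, the median log2 difference over tested genes lay between -0.0485 and 0.00949 in control cells and between -0.0838 and 0.0338 after etoposide. The lowest median in both was that of chromosome 1, which holds Ildr2, with 43.3% and 41.2% of its 1281 tested genes higher in DKO cells. The part of the chromosome in the differences of the 6 genes was not tested.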

How the data were processed

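RNA was sequenced from 12 RAW264.7 libraries, 3 in each of 4 groups taken from the sample titles. According to the study's methods, the authors made stranded libraries depleted of ribosomal RNA, aligned read pairs with HISAT2, kept unique pairs and counted them per gene. The methods name HTSeq, the submitters' processing notes featureCounts and mm10, and versions and strand setting are not given in the sources used here. What the authors deposited are unnormalized counts of read pairs, 1 value per gene and library. Unique mapping lowers counts where a gene has a near-identical copy, and overlapping genes share reads if strand was not used. Which of 2 RNA extraction kits each library had is not given.

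Symbols and coordinates came from GENCODE M21 (GRCm38), matching 32501 identifiers (99.43%). Low genes were removed by filterByExpr (edgeR 4.0.16), which left 18066 genes with 99.96% of counts. Log2 CPM (TMM, prior count 3) were tested with limma 3.58.1 in R 4.3.3 (limma-trend, robust, as the methods name it), in 1 model with a mean per group and 5 contrasts. P-values are two-sided, and calls were made at a Benjamini-Hochberg adjusted p of 0.05 over all genes. The code was tested on simulated data. Replicates differed by 3.39 to 53.6 times counting error, so no library was a repeat.

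The members and lists were chosen with earlier results of these data known. By rule the text names the members, Tfeb and Tfe3, the 2 genes most alike to each member, neighbours and list genes called in both comparisons of the lines, and the genes at the edge of 10-fold. Htr1b, list genes and neighbours not called in both and overlapping genes were named after their values were seen. Alternatives were other scalings, no filter, a prior count of 1, edgeR's quasi-likelihood test, DESeq2 1.42.0, a replicate block and leaving out each library.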

Additional observations from a re-analysis of the deposited data

Results flagged for a closer look

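The etoposide response of Rassf8 and of Ildr2 stood out by the interaction term, the difference between the responses of the lines, at -1.81 (SE 0.228) and -1.85 (SE 0.417) on the log2 scale. For Rassf8 all 3 Null etoposide libraries lay above and all 3 DKO etoposide libraries below the control libraries of their line, while for Ildr2 the DKO groups overlapped. The control difference on which the genes were chosen is a term of both values, which favours a narrowing, so no p is given and they are no finding by themselves. The part of that choice in the values was not tested.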

How the results depend on the processing

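Over 474 values of the 6 genes recomputed under alternatives, 453 kept their direction and their side of the threshold. Most of the 474 are etoposide responses within a line or interactions, which contain the control values that chose the genes. The count therefore supports no result for the 6 genes. The 6 calls between lines after etoposide held under all 20 alternatives, with Rassf8 at 2.52 to 2.75 and Ildr2 at 3.75 to 4.14 on the log2 scale. The Rassf8 and Ildr2 interactions, which share the control values that chose the genes, ran from -1.91 to -1.65 and from -2.21 to -1.57 over 19 alternatives. The number of genes past 10-fold in control cells was 157, against 249 with a prior count of 1, 335 with edgeR's quasi-likelihood test and 332 with DESeq2. The etoposide responses of the 6 genes within a line also contain those control values, and their calls support nothing. By the criterion used for all genes, 5 of the 6 were past the threshold in Null cells. Of all genes tested, 20.9% rose and 18.7% fell there. On leaving out a library the count ran from 3 to 5, with 3 without Null etoposide replicate 1 or 2. In DKO cells 4 of the 6 were past the threshold, where 20.2% of all genes rose and 19.1% fell. The choice of the genes enters these counts, so they are no test and are not weighed against those shares. The Agap2 interaction of -0.30 ran from -0.48 to 0.023 on leaving out a library, reversing without DKO etoposide replicate 1. Deviations of same-numbered libraries from their group means correlated at r from -0.822 to 0.755 over 12 pairs, with r over 0.1 in 2. Strong values had both signs, so the numbers were not taken as pairs. With the replicate number as a block, the response of Agap2 in Null cells stayed at 0.71. With 10 neighbours on each side, 16.7% were called in control cells and 33.3% after etoposide. Why these values moved was not tested. Depth limits the lower level of Agap2, at 13 to 34 counts in DKO libraries. It also limits those of Ildr2, at 22 to 28 counts, and Rassf8, at 27 to 41 counts, in Null control libraries.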

Other observations

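Chromosome 9, which holds none of the 6 genes and was singled out after its values were seen, differed as a whole between the lines. The median log2 difference, DKO minus Null, of its 987 tested genes was 0.431 in control cells and 0.353 after etoposide, and 77.5% and 71.4% of them were higher in DKO cells. On each of the other chromosomes the median lay between -0.0485 and 0.0342 in control cells. Of the 12 genes most alike to the 6, Amotl1, Ppp2r3a and Arih2 lie on chromosome 9. The part of this shift in any value given here was not tested.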
